A study of Homo sapiens with 4 samples.

Results

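The genes described here are 39 genes of protein folding, quality control and protein entry in the endoplasmic reticulum (ER), together with the sensors of the unfolded protein response. They were chosen by name from a fixed list, with earlier results of these data known. All 39 were found among the 20804 genes of the expression table, each once. RNA was sequenced from 4 libraries of MDA-MB-231, an established human line of triple-negative breast cancer. Of these, 2 were from cells of WT (wild-type) genotype and 2 carry the genotype label miR-3662-KO, read as knockout of the microRNA miR-3662 (KO), and the labels name no other treatment or allele. The series title names CRISPR interference and activation and its design text a sort by activity of the microRNA, so how the KO cells were made is uncertain. Nothing in the labels tells whether replicate libraries are separate cultures, or whether KO cells are 1 clone. The WT libraries are named in series, whereas the KO libraries are not, and their names are not explained. P-values therefore measure only the spread between these libraries, which may be technical.

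Proteins bound for secretion or for membranes enter the ER through the SEC61 channel, with the help of the translocon-associated protein (TRAP) complex, and fold there with chaperones of the HSP70 and HSP90 families and disulfide isomerases. Proteins that fail to fold are extracted and degraded, a process called ER-associated degradation. When unfolded proteins accumulate, the sensors IRE1 (gene ERN1), PERK (EIF2AK3) and ATF6 raise the transcription of chaperone and degradation genes, in part through the transcription factor XBP1, and PERK slows translation. Secretory and fast-growing tumour cells are known to depend on this system.

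The deposited values are FPKM, fragments scaled by transcript length and by the mapped fragments of each library. Levels can be compared between genes only as far as the transcript lengths used hold. Their sums ranged from 504102 to 544650 per library, and depth is not stated. The line's mesenchymal marker VIM stood at 1120 to 1321 FPKM, ESR1 at 0.01 FPKM or less and ERBB2 at 8.55 to 11.4 FPKM, and the blood cell marker PTPRC was listed at 0 in every library. Of the other markers of foreign cell types, COL1A2 was listed at 0, ALB reached 0.02 FPKM and PECAM1 0.29 FPKM, and COL1A1 was at 1.11 and 1.45 FPKM in WT and 0.36 and 0.27 FPKM in KO. KRT8 and KRT18, keratins of the line, fell by 1.10 and 0.61 on the log2 scale, and their part in the results was not tested. HBP1, the gene that the series title joins to the microRNA, was at 2.97 and 4.66 FPKM in WT and at 8.35 and 9.71 FPKM in KO. The mature microRNA is not measured by such libraries, so the knockout is not checked here.

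Sequences are shown first for the promoters that carry a known stress element, because these matches turned out to be shared by genes that moved in opposite directions. Promoters were taken from RefSeq (GRCh38.p14) as 300 bases per start, 250 before it and 50 from it on, and 38 of the 39 genes were found, with 47 windows. The elements searched on both strands were the ER stress element ERSE (CCAAT, then 9 bases of any kind, then CCACG), the element ERSE-II (ATTGG, then 1 base of any kind, then CCACG) and the unfolded protein response element UPRE (TGACGTGG). ERSE was found in 0.0769% of all 35116 windows, ERSE-II in 0.0541% and UPRE in 0.729%. Counted by gene over 9400 tested genes with a window, the shares were 0.160%, 0.160% and 1.23%. Among the 38 genes, 5 had ERSE, 3 had ERSE-II and 5 had UPRE, which makes 12 genes in all because HYOU1 had both of the last. In HYOU1 the UPRE overlapped 1 of its 2 ERSE-II matches.

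The windows below run 5′ to 3′ on the strand of the gene, with the matched element in capitals and up to 20 bases on either side. HSPA5 (chr9:125241371-125241429, minus strand) has its ERSE at positions -66 to -48 from the start, and XBP1 (chr22:28800583-28800641, minus strand) at -52 to -34. HSP90B1 (chr12:103930196-103930359, plus strand) has 2 matches. HERPUD1 (chr16:56932005-56932055, plus strand) and HYOU1 (chr11:119057254-119057413, minus strand) have ERSE-II.
HSPA5: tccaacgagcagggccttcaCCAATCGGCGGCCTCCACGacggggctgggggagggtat
XBP1: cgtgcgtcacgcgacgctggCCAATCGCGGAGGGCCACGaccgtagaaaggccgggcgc
HSP90B1: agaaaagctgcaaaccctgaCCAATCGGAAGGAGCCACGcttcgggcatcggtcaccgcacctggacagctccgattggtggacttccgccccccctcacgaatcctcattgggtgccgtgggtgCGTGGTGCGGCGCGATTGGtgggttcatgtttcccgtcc
HERPUD1: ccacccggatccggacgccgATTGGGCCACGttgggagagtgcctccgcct
HYOU1: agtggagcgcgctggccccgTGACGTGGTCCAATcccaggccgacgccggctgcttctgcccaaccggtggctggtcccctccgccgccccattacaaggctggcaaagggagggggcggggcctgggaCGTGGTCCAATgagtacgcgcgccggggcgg

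The other UPRE matches, on either strand, were in DNAJC10 (chr2:182716112-182716159, plus strand), TXNDC5 (chr6:7910142-7910189, minus strand), SSR4 (chrX:153794519-153794566, plus strand) and SSR3 (chr3:156554139-156554186, minus strand). Those of TXNDC5, SSR4 and SSR3, like the ERSE of XBP1, lie in only 1 of the windows listed for the gene.
DNAJC10: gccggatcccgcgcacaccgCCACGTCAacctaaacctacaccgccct
TXNDC5: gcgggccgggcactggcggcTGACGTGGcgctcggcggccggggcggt
SSR4: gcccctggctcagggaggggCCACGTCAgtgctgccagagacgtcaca
SSR3: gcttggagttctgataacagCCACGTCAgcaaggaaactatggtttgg

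The comparison asked which of these genes differed between KO and WT cells. The co-chaperone genes DNAJB9 and DNAJC10, the degradation gene HERPUD1 and the TRAP subunit gene SSR4 were higher in KO, by 1.75 to 2.39 times. The chaperone genes HSPA5 and HYOU1, the isomerase gene TXNDC5 and the TRAP subunit gene SSR3 were lower, at 0.634 to 0.719 times the WT level. Here and below, changes in times are ratios of the group means in FPKM. Log2 differences are on the log2(FPKM + 1) scale, so both measures need not match. Of 38 genes tested (ERN1 lay under 1 FPKM in every library), 4 rose and 4 fell at an adjusted p under 0.05 in limma, and 30 did not pass. That is 21.1% called, against 27.0% of all 11786 tested genes, of which 16.2% rose and 10.8% fell, so these genes were not called more often than genes at large. The median log2 difference was 0.10 over the 38 genes and 0.07 over all tested genes. The 8 calls were the same after the libraries were scaled by the median of ratios, although over all genes that scaling changed the split from 1906 rises and 1278 falls to 1557 and 1613. In these bulk libraries, fewer cells of a kind and less RNA per cell cannot be told apart.

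The calls differed in how far they rested on single libraries. SSR4 and DNAJB9 passed whichever library was left out. The other 6 each lost the call without at least 1 library, as given gene by gene. With all 19833 genes above 0 in some library tested, SSR4 passed alone (adjusted p = 0.0479) and the adjusted p of the other 7 ranged from 0.0549 for HSPA5 to 0.162 for SSR3. The groups did not overlap in 27 of the 38 genes (71.1%), against 68.0% of all tested genes. KO was the higher group in 17 of them and the lower in 10, and over all tested genes above in 39.3% and below in 28.7%.

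**Figure D1:**
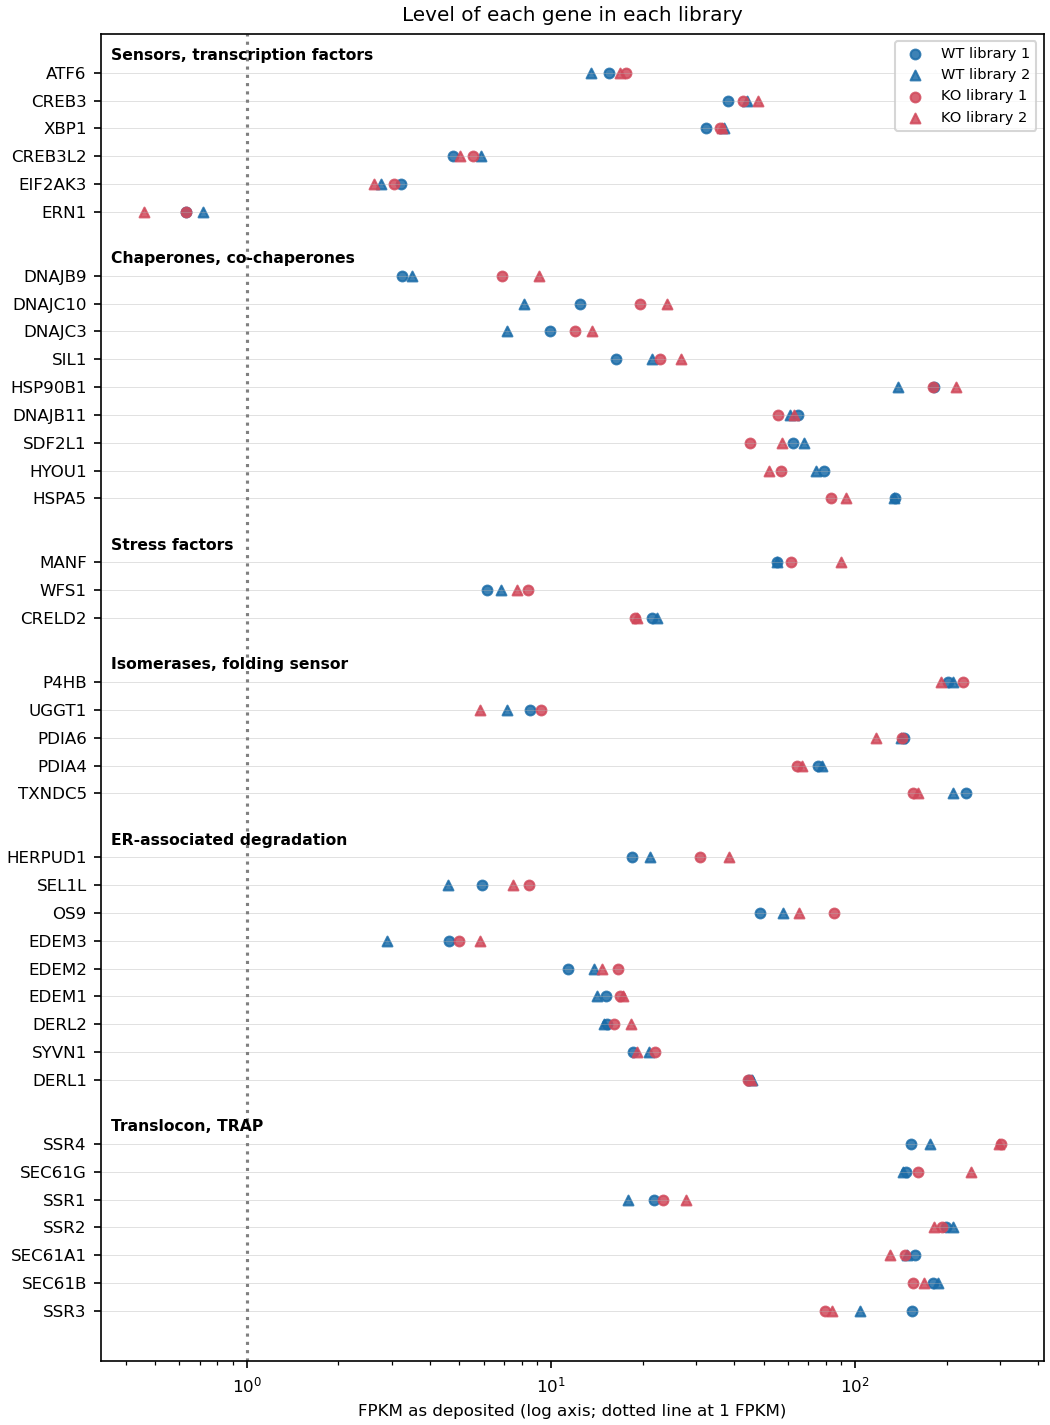
Level of each of the 39 genes in FPKM (log axis) in the 2 WT libraries (blue) and the 2 KO libraries (red), grouped by role, with circles for library 1 and triangles for library 2. HSPA5, HYOU1, TXNDC5 and SSR3 show both red points left of both blue ones, and DNAJB9, DNAJC10, HERPUD1 and SSR4 both red points to the right.

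The sensors and their transcription factors gave no call. ATF6, a sensor that is cleaved in the Golgi to release a transcription factor, was at 15.5 and 13.6 FPKM in WT and 17.6 and 16.9 FPKM in KO. Its KO values lay above the WT values, with a log2 difference of 0.23 ± 0.14 (SE) that did not pass (adjusted p = 0.233, limma). EIF2AK3, the gene of the kinase PERK, was at 3.22 and 2.76 FPKM in WT and 3.05 and 2.62 FPKM in KO, and the groups overlapped. ERN1, the gene of the kinase and RNase IRE1, was at 0.63 and 0.72 FPKM in WT and 0.63 and 0.46 FPKM in KO and was not tested.

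XBP1 encodes the factor whose messenger RNA is spliced by IRE1. It was at 32.2 and 36.9 FPKM in WT and 36.0 and 36.4 FPKM in KO, with KO values between the WT values (log2 difference 0.07 ± 0.13). The table holds 1 value for both RefSeq transcripts of XBP1, so its spliced and unspliced forms cannot be told apart. CREB3 and CREB3L2, membrane-bound transcription factors that are activated like ATF6, differed by 0.14 ± 0.13 and -0.00 ± 0.16 on the log2 scale and overlapped between the groups. The 5 tested genes of this group ranged from -0.06 to 0.23, and their median of 0.07 became -0.00 after median-of-ratios scaling.

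Chaperones and their partners moved in both directions, with 2 of 9 higher and 2 lower. That is 44.4% called, against 27.0% of all tested genes, a difference that was not tested. HSPA5 encodes BiP, the HSP70 chaperone of the ER lumen, and lies on chromosome 9 from 125234853 to 125241343 (coordinates of genes are RefSeq, GRCh38.p14). It was at 135 and 134 FPKM in WT and 83.0 and 93.4 FPKM in KO. Both KO libraries lay well below the WT pair, and the level fell to 0.656 times (log2 difference -0.61 ± 0.11, adjusted p = 0.00915). Without WT library 1 or WT library 2 the adjusted p was 0.0592 and 0.0512.

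HYOU1 encodes GRP170, which exchanges the nucleotide of BiP, and lies on chromosome 11 from 119044188 to 119057205, where an antisense gene overlaps up to 557 bases of an exon. It was at 78.7 and 74.3 FPKM in WT and 56.9 and 52.0 FPKM in KO. The groups did not overlap, and HYOU1 fell to 0.712 times (-0.48 ± 0.12, adjusted p = 0.0206). Its adjusted p was 0.119 without WT library 1, 0.0776 without WT library 2 and 0.0795 without KO library 2. The ratio of HYOU1 to HSPA5 within a library was 0.583 and 0.555 in WT and 0.686 and 0.557 in KO, so it overlapped between the groups. SIL1, the other nucleotide exchange factor, was at 16.4 and 21.4 FPKM in WT and 22.8 and 26.8 FPKM in KO, and its difference of 0.38 ± 0.16 did not pass (adjusted p = 0.120).

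Genes of 4 J-domain proteins, which bring clients to BiP and stimulate its ATPase, are among the chaperone partners. DNAJB9 (ERdj4) is also known to restrain IRE1, and its gene lies on chromosome 7 from 108569874 to 108574850. It was at 3.24 and 3.49 FPKM in WT and 6.91 and 9.15 FPKM in KO. Both KO values were about double the WT values or more, a rise of 2.39 times in mean FPKM. On the log2(FPKM + 1) scale the difference was 1.04 ± 0.17 (adjusted p = 0.00614, limma). The exons of DNAJB9 overlap those of THAP5 on the opposite strand by up to 183 bases, and THAP5 was at 5.94 and 4.76 FPKM in WT and 6.74 and 9.39 FPKM in KO. The part of shared reads in either value was not tested.

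DNAJC10 (ERdj5) reduces disulfide bonds of proteins on their way to degradation, and its gene lies on chromosome 2 from 182716257 to 182794464. It was at 12.5 and 8.17 FPKM in WT and 19.7 and 24.1 FPKM in KO. The lower KO value exceeded the higher WT value, and the gene rose by 2.12 times (1.04 ± 0.20, adjusted p = 0.0114). The 2 WT values differed more between themselves than those of DNAJB9, and without KO library 2 the adjusted p was 0.0712. A processed pseudogene of a ribosomal protein, RPL31P15, lies within its annotated exons.

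DNAJC3 (p58IPK), a co-chaperone that is also known as an inhibitor of PERK, was at 9.92 and 7.19 FPKM in WT and 12.0 and 13.6 FPKM in KO. Its groups did not overlap, and its difference of 0.54 ± 0.18 missed the threshold (adjusted p = 0.0555). It passed among genes with at least 5 FPKM (0.0455) and without WT library 1 (0.0457), whereas without WT library 2 the log2 difference was 0.34 (adjusted p = 0.252) and without KO library 2 the adjusted p was 0.234. DNAJB11 (ERdj3), a soluble co-chaperone, was at 64.7 and 61.1 FPKM in WT and 55.9 and 62.8 FPKM in KO and overlapped. SDF2L1, which binds ERdj3, was at 62.3 and 68.0 FPKM in WT and 45.2 and 57.5 FPKM in KO (-0.35 ± 0.14, adjusted p = 0.111).

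HSP90B1 encodes GRP94, the HSP90 of the ER. It was at 181 and 138 FPKM in WT and 181 and 215 FPKM in KO, overlapped between the groups and did not pass (0.32 ± 0.15, adjusted p = 0.162). HSPA5 and HSP90B1 both have an ERSE match, and their changes were unequal. The ratio of HSPA5 to HSP90B1, which no scaling of libraries alters, was 0.747 and 0.969 in WT and 0.459 and 0.435 in KO. The ratio of DNAJB9 to HSPA5 was 0.0240 and 0.0261 in WT and 0.0833 and 0.0980 in KO, and that of DNAJC10 to HSPA5 was 0.0923 and 0.0610 in WT and 0.237 and 0.258 in KO. All these ratios separated the groups. Those of DNAJB9 and DNAJC10 to HSPA5 had to, because both genes lay above WT in KO and HSPA5 lay below. That of HSPA5 to HSP90B1 had to as well at the values of both genes, whichever libraries are paired. These ratios therefore add nothing to the values of the single genes. The summed level of the 9 chaperone genes did not separate the groups, at 563 and 516 FPKM in WT and 483 and 554 FPKM in KO.

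**Figure D2:**
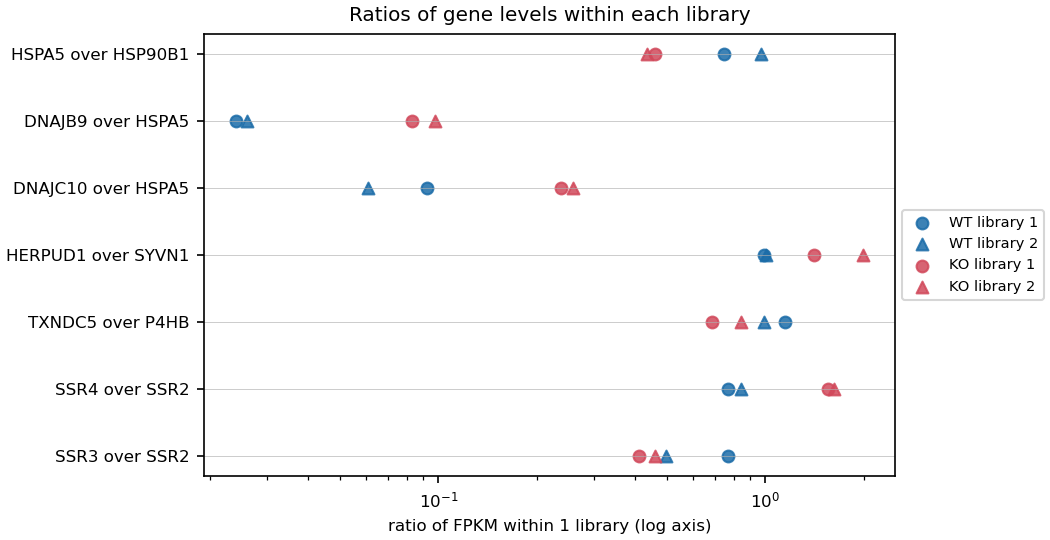
Ratio of the FPKM of 2 genes within a library (log axis) for 7 pairs, in WT (blue) and KO (red) libraries. The ratios of DNAJB9 and DNAJC10 to HSPA5 and of SSR4 to SSR2 are higher in both KO libraries, and HSPA5 over HSP90B1 is lower in both. The pairs named as higher join genes that separated the groups in opposite directions, so those ratios had to separate. At the values of the single genes the other ratios had to separate too, whichever libraries are paired.

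MANF, CRELD2 and WFS1 did not pass. MANF, a small protein that is released under ER stress, was at 55.4 and 55.4 FPKM in WT and 61.4 and 90.1 FPKM in KO. The WT values were nearly equal and the KO values far apart, and the difference of 0.42 ± 0.18 (adjusted p = 0.115) passed only without KO library 1 (0.69, adjusted p = 0.0218) and was 0.14 (0.481) without KO library 2. CRELD2, a secreted protein with an isomerase-like motif and an ERSE match in its promoter, was at 21.4 and 22.3 FPKM in WT and 18.9 and 19.2 FPKM in KO (-0.19 ± 0.12). WFS1, a membrane protein that regulates ATF6, was at 6.17 and 6.83 FPKM in WT and 8.38 and 7.71 FPKM in KO (0.27 ± 0.15).

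Of the disulfide isomerase and folding sensor genes, 1 of 5 fell and none rose. TXNDC5, a thioredoxin-domain isomerase with the highest WT mean of the 39 genes (220.1 FPKM) and a locus on chromosome 6 from 7881517 to 7910788, was at 231.45 and 208.82 FPKM in WT and 155 and 161 FPKM in KO. The groups were well apart, and TXNDC5 fell to 0.719 times (-0.47 ± 0.11, adjusted p = 0.0174). Its adjusted p was 0.125 without WT library 1, 0.0564 without WT library 2 and 0.0535 without KO library 1. The read-through gene BLOC1S5-TXNDC5, which shares exons with it, was listed at 0 in every library.

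P4HB, the classical protein disulfide isomerase, was at 201 and 209.9 FPKM in WT and 226 and 191 FPKM in KO, with no separation (0.02 ± 0.12). TXNDC5 over P4HB was 1.15 and 0.995 in WT and 0.686 and 0.844 in KO. At the values of both genes this ratio had to separate the groups, whichever libraries are paired. PDIA4 was at 75.3 and 77.8 FPKM in WT and 64.5 and 67.1 FPKM in KO (-0.22 ± 0.11, adjusted p = 0.174), and PDIA6 at 145 and 141 FPKM in WT and 142 and 117 FPKM in KO (-0.15 ± 0.12). Of these last 2, both isomerases, PDIA4 separated the groups and PDIA6 did not. UGGT1, the sensor that sends misfolded glycoproteins back to the chaperone calnexin, was at 8.55 and 7.16 FPKM in WT and 9.25 and 5.86 FPKM in KO and overlapped.

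The 9 degradation genes of the list lay mostly on the higher side. In 7 of 9 both KO values exceeded both WT values and in none were both lower (39.3% and 28.7% over all tested genes). Their median log2 difference was 0.30, or 0.23 after median-of-ratios scaling. Among 24 further degradation genes, described below, 9 lay above and 9 below, with a median of 0.054. Of the 9 genes of the list only HERPUD1 passed (11.1% called, against 27.0% of all tested genes). HERPUD1, which organises the membrane ubiquitin ligase complex and lies on chromosome 16 from 56932142 to 56944864, was at 18.4 and 21.2 FPKM in WT and 31.0 and 38.4 FPKM in KO. Both KO values exceeded the WT pair by a wide margin, and the gene rose by 1.75 times (0.77 ± 0.15, adjusted p = 0.0108). Without WT library 1 or KO library 2 the adjusted p was 0.0640 and 0.0585.

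SEL1L and SYVN1 encode the adaptor and the ligase HRD1 of that complex. SEL1L was at 5.92 and 4.58 FPKM in WT and 8.46 and 7.49 FPKM in KO, and SYVN1 at 18.5 and 21.1 FPKM in WT and 21.9 and 19.2 FPKM in KO. SEL1L separated the groups but missed the threshold (0.53 ± 0.17, adjusted p = 0.0506), whereas SYVN1 overlapped (0.05 ± 0.14). HERPUD1 over SYVN1 was 0.994 and 1.01 in WT and 1.41 and 1.995 in KO, and SEL1L over SYVN1 was 0.319 and 0.218 in WT and 0.386 and 0.390 in KO. At the values of the single genes both ratios had to separate the groups, whichever libraries are paired, so they add nothing to those values.

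OS9, a lectin that hands glycoproteins to SEL1L, was at 48.6 and 57.7 FPKM in WT and 85.3 and 65.4 FPKM in KO (0.49 ± 0.16, adjusted p = 0.0557). It passed without KO library 2 (0.68, adjusted p = 0.0391) and among genes with at least 5 FPKM (0.0492), whereas the difference was 0.30 (adjusted p = 0.210) without KO library 1 and 0.37 (0.252) without WT library 1. The mannosidase-like genes EDEM1, EDEM2 and EDEM3, whose products mark glycoproteins for degradation, differed by 0.20 ± 0.13, 0.30 ± 0.15 and 0.46 ± 0.20, each with KO values above WT values and none past the threshold. That of EDEM3 was 0.19 without WT library 2 and 0.72 without WT library 1. DERL2 and DERL1, channel proteins, differed by 0.17 ± 0.14 and -0.01 ± 0.11, and DERL1 was at 44.4 to 45.6 FPKM in all libraries. The summed level of the 9 genes was 183 and 196 FPKM in WT and 246 and 232 FPKM in KO.

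The 4 subunits of the TRAP complex did not move together. SSR4 (chromosome X, 153794159 to 153798499) was at 153 and 176 FPKM in WT and 301 and 296 FPKM in KO. Both KO libraries stood far above WT, and the gene rose by 1.81 times (0.86 ± 0.11, adjusted p = 0.00312), the smallest adjusted p among the 38 tested genes. Its exons overlap those of IDH3G on the opposite strand by up to 278 bases, and IDH3G, a subunit gene of a mitochondrial dehydrogenase, also rose, from 41.0 and 47.1 FPKM in WT to 63.3 and 63.1 FPKM in KO. The part of shared reads in either rise was not tested.

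SSR3 (chromosome 3, 156539553 to 156555117) was at 154 and 104 FPKM in WT and 79.4 and 83.9 FPKM in KO. All KO values lay below WT, but the WT libraries differed from each other by more than the second lay from the KO pair. SSR3 fell to 0.634 times (-0.62 ± 0.18, adjusted p = 0.0378), with an adjusted p of 0.190 without WT library 1, 0.120 without KO library 1 and 0.105 without KO library 2. Without WT library 1 its log2 difference was -0.34.

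SSR2 was at 199 and 209 FPKM in WT and 193 and 182 FPKM in KO (-0.12 ± 0.10), and SSR1 at 21.8 and 17.9 FPKM in WT and 23.3 and 27.8 FPKM in KO (0.35 ± 0.15, adjusted p = 0.130). Neither passed. SSR4 over SSR2 was 0.767 and 0.842 in WT and 1.56 and 1.63 in KO, and SSR3 over SSR2 was 0.771 and 0.495 in WT and 0.411 and 0.461 in KO. Both ratios had to separate the groups at the values of the single genes, whichever libraries are paired. In FPKM, a measure that depends on the transcript length used, SSR1 stood far below the other 3 subunits in every library.

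The subunits of the SEC61 channel did not pass. SEC61A1, the pore, was at 157 and 147 FPKM in WT and 146 and 130.1 FPKM in KO, and SEC61B at 180.1 and 188 FPKM in WT and 155 and 168 FPKM in KO, both with lower values in KO (-0.14 ± 0.11 and -0.19 ± 0.11). SEC61G was at 147 and 143 FPKM in WT and 160.2 and 239 FPKM in KO. It was high in KO library 2, and its difference of 0.43 ± 0.18 (adjusted p = 0.110) passed only without KO library 1 (0.72, adjusted p = 0.0153) and was 0.14 (0.434) without KO library 2.

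**Figure D3:**
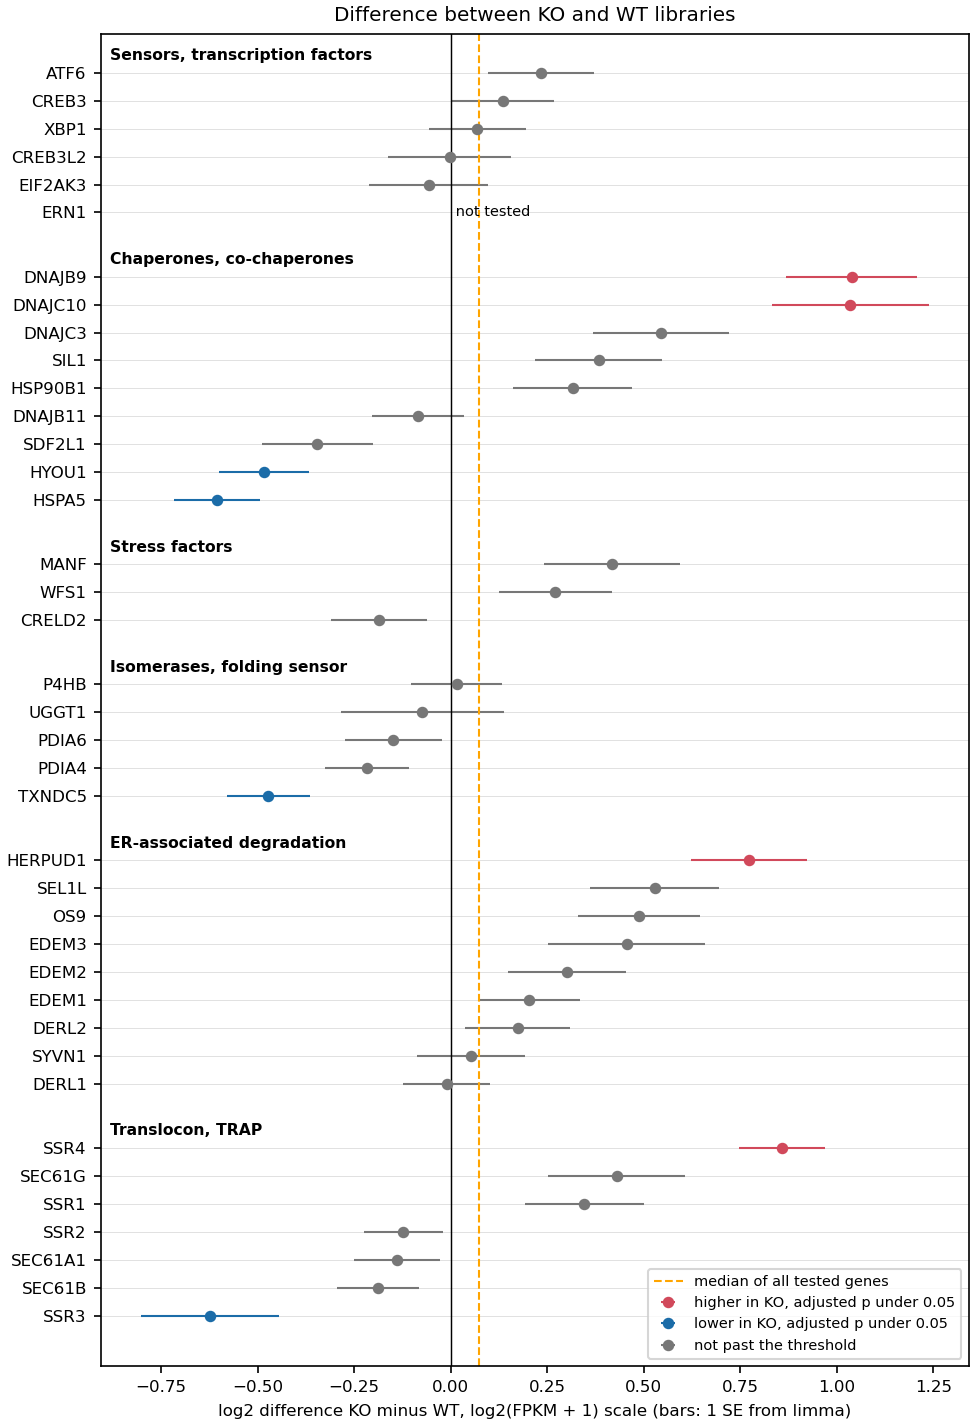
Log2 difference KO minus WT on the log2(FPKM + 1) scale for the 38 tested genes, by role, with 1 SE from limma; colour marks genes past an adjusted p of 0.05 and the dashed line the median of all tested genes, 0.07. Degradation genes lie at -0.01 to 0.77, whereas the chaperone group runs from -0.61 to 1.04.

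Genes with and without a promoter match were set side by side. Of the 12 genes with a match, 3 rose and 4 fell, and of 25 tested genes with windows and no match, DNAJB9 rose and none fell. All 5 genes with UPRE were called, DNAJC10 and SSR4 higher and TXNDC5, SSR3 and HYOU1 lower. The matches of TXNDC5, SSR4 and SSR3 are not in every window listed for the gene. The windows that hold them lie inside the span of the gene. Of the 8 genes with ERSE or ERSE-II, HERPUD1 rose, HSPA5 and HYOU1 fell, and XBP1, HSP90B1, PDIA6, CRELD2 and SDF2L1 did not pass. Among 132 other tested genes with any of these matches 31.1% were called, and among 111 with UPRE 34.2%, against 27.0% of all tested genes. These counts are a description, and no test was made of them. The genes and elements were chosen with earlier results of these data known, so the counts cannot serve as a test. Only exact matches within the windows were searched, so a gene with no match may still have such an element.

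**Figure D4:**
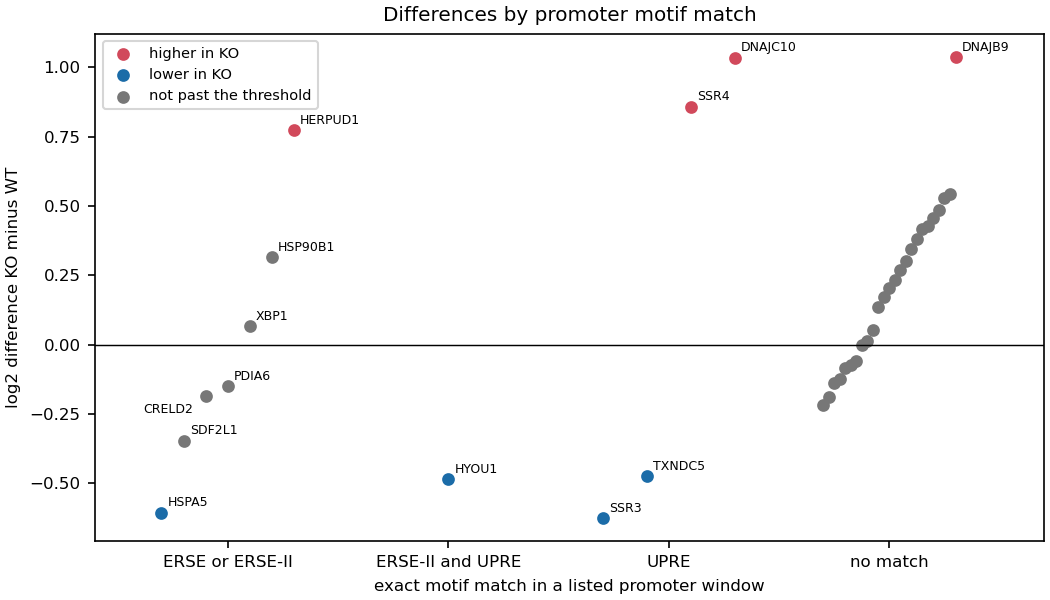
Log2 difference KO minus WT of the 37 tested genes with a promoter window, placed by the exact element found and, within a class, in order of the difference. Genes with UPRE lie at 0.86 or more or at -0.47 or less, and of the genes with no match only DNAJB9 is past the threshold. The genes and elements were chosen with earlier results of these data known.

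The members were also searched for sites of the microRNA. The mature sequence of miR-3662 (chr6:134979355-134979378, minus strand, GRCh38.p14, RefSeq) is shown with its seed, bases 2 to 8, in capitals.
hsa-miR-3662: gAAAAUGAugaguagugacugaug
A match to the seed, TCATTTT, was found in the longest annotated 3′ UTR (GENCODE 29, GRCh38) of 13 of the 39 genes (33.3%) and of 33.5% of 10853 tested genes with a 3′ UTR, so the share was close to that of genes at large. The sites of 3 genes past the threshold are shown with 8 bases on either side and the match in capitals. Those of DNAJC10, which also passed and had 8 matches, are not shown. HERPUD1 has its match at chr16:56944442-56944448 on the plus strand, HYOU1 at chr11:119044387-119044393 and SSR3 at chr3:156541815-156541821 and chr3:156540657-156540663, with HYOU1 and SSR3 on the minus strand.
HERPUD1: gtaactaaTCATTTTtttgtttt
HYOU1: tgtgtcagTCATTTTgtcttttc
SSR3, first: ccagatcaTCATTTTctgcaact
SSR3, second: tagttcctTCATTTTaacttaat

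HERPUD1 rose, and HYOU1 and SSR3 fell. DNAJC10, which rose, had 8 matches in an annotated 3′ UTR of 17332 bases. HSPA5, TXNDC5, SSR4 and DNAJB9 had none in this window. The median log2 difference was 0.23 for tested genes of the list with a match and 0.05 for those without, against 0.09 and 0.06 over all tested genes. A match is a description and not a site shown to be used.

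A second list held 103 other genes of the same pathway, of which 98 were tested, and 13 rose and 10 fell (11 and 12 after median-of-ratios scaling). That is 23.5% called, against 27.0% of all tested genes. Of 27 further folding genes 5 rose and none fell (18.5% called, under the share of all tested genes). CANX, the membrane lectin calnexin, was at 227 and 193 FPKM in WT and 310.2 and 323 FPKM in KO (0.60, adjusted p = 0.0104, limma). FKBP7, a prolyl isomerase of the ER, rose by 0.87, from 1.2 and 1.38 FPKM in WT to 3.25 and 3.13 FPKM in KO. Its WT values were thus close to the filter of 1 FPKM. UGGT2, a relative of UGGT1, rose by 0.88, from 3.31 and 2.15 FPKM in WT to 5.9 and 5.69 FPKM in KO. HSPA13 and DNAJB14, named after their values were seen, were the other two, at log2 differences of 0.60 (adjusted p = 0.0369) and 0.80 (0.0182). HSPA13 passed only without KO library 1 among the 4 fits that leave out a library, and DNAJB14 lost its call without WT library 2 (0.0745) or KO library 2 (0.110). The lectin CALR, the soluble counterpart of calnexin, was at 429 to 500.4 FPKM and overlapped (-0.02).

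Of 24 further degradation genes 3 rose and 3 fell (2 and 4 after median-of-ratios scaling). That is 25.0% called, against 27.0% of all tested genes. In 9 of them both KO values exceeded both WT values, and in 9 both were lower. Their median log2 difference was 0.054, or -0.015 after median-of-ratios scaling. ERLIN2, a membrane scaffold, RNF5, a ubiquitin ligase, and SELENOK, a selenoprotein, rose by 0.61, 0.61 and 0.38. SELENOK (adjusted p = 0.0486) did not pass after median-of-ratios scaling (0.0845), with a pseudocount of 0.1 (0.0513), without the trend (0.0702) or with the replicate block (0.0819). The ATPase gene VCP, which pulls proteins out of the membrane, was at 209 and 214 FPKM in WT and 146 and 149.7 FPKM in KO (-0.52, adjusted p = 0.0109), and the ubiquitin-conjugating enzyme gene UBE2J2 and BAG6, a chaperone of exposed membrane segments, fell by 0.61 and 0.55. Of 25 translocation and glycosylation genes 4 rose and 2 fell (24.0% called, against 27.0% of all tested genes). TRAM1, a membrane protein beside the SEC61 channel, was at 33.4 and 27.8 FPKM in WT and 67.3 and 68.3 FPKM in KO (1.13, adjusted p = 0.00211), DAD1, a subunit of the oligosaccharyltransferase, rose by 0.70 and SRP14, of the signal recognition particle, by 0.45, while its relative TRAM2 fell by 0.69 and SRP68, of the same particle as SRP14, by 0.47. SEC62, named after its value was seen, was the remaining rise (0.61, adjusted p = 0.0402). It did not pass after median-of-ratios scaling (0.0571), and of the fits that leave out a library it passed only without WT library 1.

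Of 13 signalling genes 1 rose and 3 fell (30.8% called, against 27.0% of all tested genes). CREB3L4 rose by 1.18, from 1.47 and 2.36 to 5.28 and 5.79 FPKM, and its relative CREB3L1 fell by 0.81. TRAF2, the adaptor that IRE1 recruits, was at 29.7 and 30.2 FPKM in WT and 16.0 and 15.1 FPKM in KO (-0.90, adjusted p = 0.00380), and EIF2S1, the substrate of PERK, fell by 0.43. Of 9 genes listed as output of the PERK branch none rose and 2 fell (22.2% called, against 27.0% of all tested genes). ATF4 fell by 0.69 and SESN2 by 0.49, and the median of the 9 genes was -0.30. These are RNA levels, and the activity of PERK was not measured. DDIT3, a pro-apoptotic factor of that branch, was at 12.1 and 15.4 FPKM in WT and 10.9 and 17.6 FPKM in KO and overlapped.

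Among the 20 genes of this second list named by rule, CREB3L4, FKBP7, TRAF2 and TRAM1 passed whichever library was left out. ERLIN2, SELENOK and SESN2 lost the call whichever library was left out. CANX lost its call without WT library 2, VCP and UBE2J2 without either WT library, ATF4 without WT library 2 or KO library 1, CREB3L1 without WT library 2 or KO library 2, and TRAM2 without WT library 1 or KO library 2. EIF2S1 and SRP68 passed only without KO library 2, BAG6, DAD1 and SRP14 only without KO library 1, RNF5 only without WT library 2 and UGGT2 only without WT library 1.

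**Figure D5:**
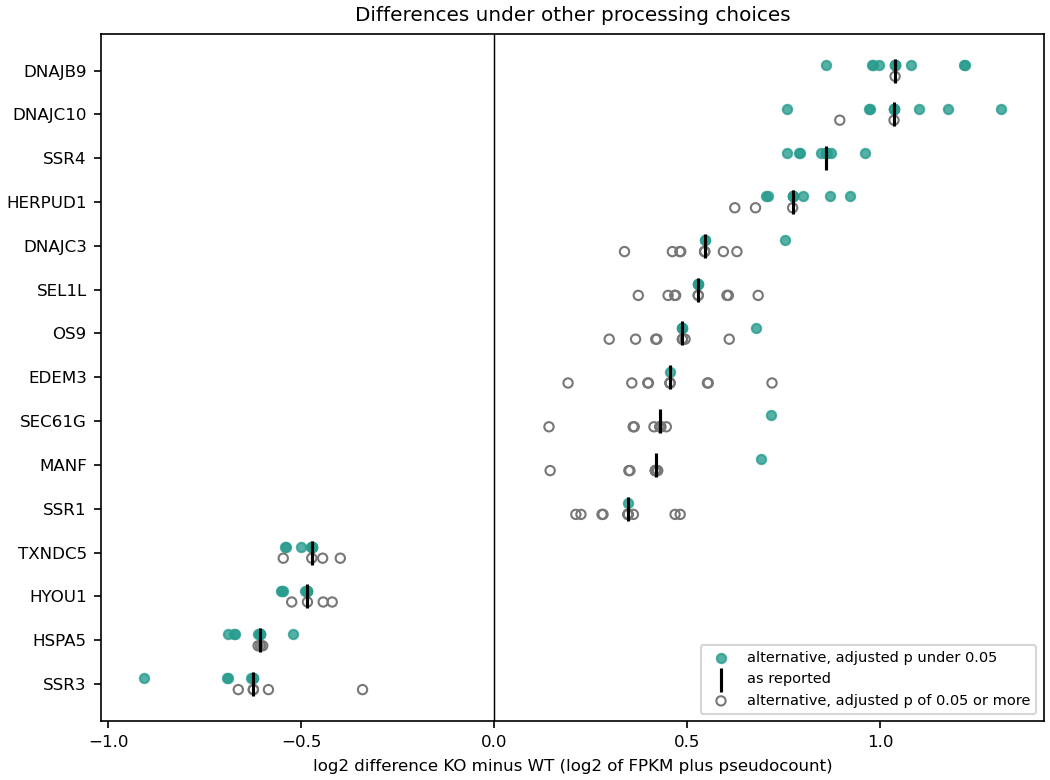
Log2 difference of the 15 genes of the list that passed in at least 1 setting, as reported (black bar) and under the alternatives (filled where the adjusted p was under 0.05, open where not). SSR4 is filled throughout, and no gene changes its sign.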

How the data were processed

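The authors deposited 1 table of FPKM values with 2 decimals, a row for each gene and a column for each library, as its header shows. The submitters' processing notes name HISAT, StringTie, Cufflinks and GATK and the build hg38, with no roles or versions. No source used here states depth, strand use or how shared reads were split, so no counting interval is given. Some rows join RefSeq transcripts with assembled ones, as in 13 of the 39 genes.

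Values were analysed as log2(FPKM + 1), which understates changes of low genes. Testing took the genes that reached 1 FPKM in 2 or more libraries and was done with limma 3.58.1 (R 4.3.3), moderated test with a mean-variance trend across all genes, Benjamini-Hochberg adjustment over 11786 genes and a threshold of 0.05. The fit was tested on simulated data. Tables were made with Python 3.11.15 and pandas 2.3.3. All 39 genes are named, and of the second list up to 3 rises and 3 falls per group with the smallest p. The genes, lists and elements were chosen with earlier results of these data known. Alternatives changed the scaling, pseudocount, filter, trend, replicate block and libraries. Replicate numbers are not stated to mark a shared batch. Coordinates are GRCh38. Protein sequences were not analysed here.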

Additional observations from a re-analysis of the deposited data

How the results depend on the processing

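With 2 libraries a group and no stated depth, the precision of low genes is unknown. All 8 calls kept their direction under every alternative, and both scalings and a pseudocount of 0.1 kept all 8. Leaving out 1 library each, which assumes that the lone library of its group varies like the other group, the list gave 3 to 6 rises and 0 to 2 falls, all genes gave 1402 to 1902 calls (845 to 1183 rises and 509 to 824 falls), and the second list gave 4 to 9 rises and 2 to 6 falls. With no filter on low values 525 genes were called (290 rises and 235 falls), with 1 rise and 0 falls in the list and 1 and 2 in the second list, and the cause was not tested. With at least 5 FPKM 2601 of 8457 tested genes were called (1420 rises and 1181 falls). The list, with 36 genes tested there, had 7 rises, DNAJC3, SEL1L and OS9 being added, and 4 falls. Without the trend SSR3 was lost (adjusted p = 0.0545) and SEL1L gained (0.0446). With the replicate block 2864 genes were called, and the list had 5 rises, OS9 being added (0.0453), and 4 falls. Of the 20 genes of the second list named by rule, the replicate block lost SELENOK, EIF2S1 (0.0521) and SESN2 (0.0903), the fit without the trend lost SELENOK, SRP14 (0.0578) and EIF2S1 (0.0651), and the fit with no filter lost 17. Deviations of same-numbered libraries correlated at -0.177 across genes, so the crossed replicate block, added after seeing the data, was also run. It called 4170 genes, with 9 rises and 4 falls in the list.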
